A study of Cavia porcellus with 12 samples.

Results

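The genes described here encode the α2 and α3 chains of type VI collagen (*COL6A2* and *COL6A3*) and the single chains of type XII and type XIV collagen (*COL12A1* and *COL14A1*). They were chosen by name among the human orthologue symbols of the deposited expression table, and all 4 were found among its 11896 symbols. Liver RNA was sequenced from 6 guinea pigs with NASH and 6 controls. All animals were female Dunkin Hartley guinea pigs, 10 weeks old when the study began. The controls received chow and the animals with NASH a high-fat diet that also held sucrose and cholesterol, in both cases for 25 weeks. The animals had been assigned to the diets in blocks by body weight. No animal carried a transgene or received a drug or toxin for disease induction. The animals with NASH had been picked from the high-fat-fed animals for bridging fibrosis. The controls had been drawn at random and had neither NASH nor fibrosis. The groups were thus already apart in scarring when the RNA was taken. Each library came from a piece of the left lateral lobe of 1 animal, and the livers had not been perfused.

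Collagens are built from 3 chains wound into a triple helix. Type VI collagen is a heterotrimer of an α1, an α2 and an α3 chain, or a chain related to α3, and assembles into beaded microfilaments between cells and the fibrillar matrix. The C-terminal end of the α3 chain is cut off after secretion and is known as endotrophin. Types XII and XIV are homotrimers of the fibril-associated class (FACIT), which lie on the surface of the collagen fibrils of types I and III rather than forming fibrils themselves. In liver these collagens are made mainly by hepatic stellate cells and portal fibroblasts, and all are part of scar matrix. The count for each gene pools its isoforms. A RefSeq table of the later guinea pig assembly mCavPor4.1 lists all 4 as protein-coding, with 2 transcript models for *COL6A2*, 2 for *COL6A3*, 5 for *COL12A1* and 4 for *COL14A1*. Positions in the genome of the files and protein or promoter sequences were not used here.

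Library totals ranged from 16980274 to 28636467 counts for controls and from 23704607 to 33091460 for NASH. A count of 0 allows up to 3 counts, or up to 0.214 CPM, counting error only, and the 4 genes had at least 48 counts in every animal. Values are CPM, reads per gene divided by the library total after scaling by the TMM factor, which ranged from 0.804 to 0.875 for controls and from 1.12 to 1.24 for NASH. The hepatocyte markers, of which 10 of 12 were in the table, summed to 117325 to 150175 CPM in controls and 49534 to 80097 CPM in NASH. Differences were tested by the quasi-likelihood method of edgeR on the 11896 symbols, with the threshold at 0.05 for p-values adjusted after Benjamini and Hochberg.

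All 4 genes were higher in guinea pigs with NASH than in controls. The estimate was largest for *COL6A3*, 8.71-fold, followed by *COL6A2* with 4.83-fold, *COL12A1* with 4.22-fold and *COL14A1* with 1.74-fold. By the same test, 27.9% of all symbols were higher and 26.0% were lower in NASH, or 53.9% in either direction. The groups did not overlap for any of the 4, and a complete separation upwards held for 18.4% of all symbols. The rise of *COL14A1* was smaller than that of each of the other 3 when the genes were compared within each animal.

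**Figure D1:**
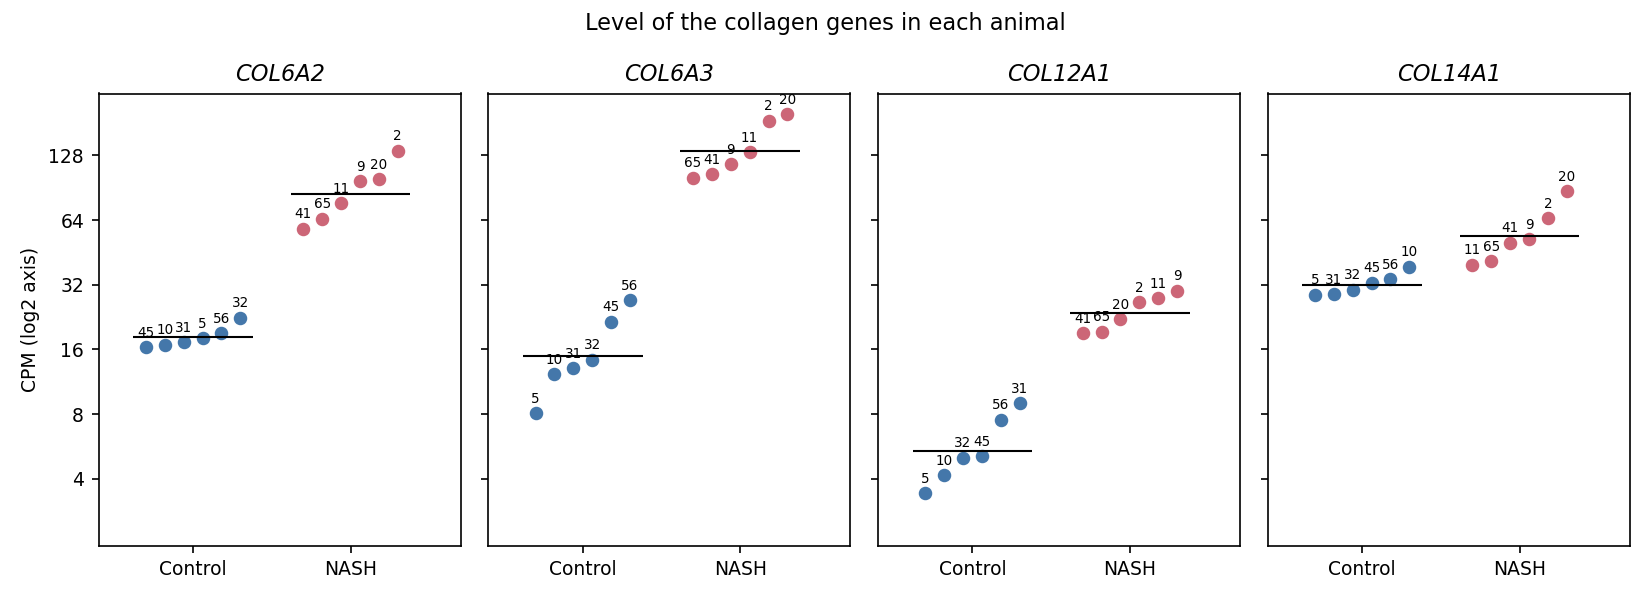
Level of each gene in each animal, as CPM on a log2 axis, with controls in blue and guinea pigs with NASH in red. Numbers beside the points are animal numbers and horizontal lines are geometric means of 6 animals. The groups are wide apart for *COL6A2* and *COL6A3* and nearly touch for *COL14A1*, where the highest control is at 38.9 CPM and the lowest animal with NASH at 39.7 CPM.

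*COL6A3* encodes the largest chain of type VI collagen, with a long array of von Willebrand factor A domains. In controls its level ranged from 8.07 CPM in animal 5 over a median of 13.7 CPM to 27.2 CPM in animal 56. In NASH it ranged from 101 CPM in animal 65 over a median of 124 CPM to 200 CPM in animal 20. The lowest animal with NASH was still 3.70 times above the highest control. Means were 16.1 ± 6.98 CPM for controls and 140 ± 42.5 CPM for NASH (SD, n = 6 each), a difference equal to 3.12 on the log2 scale (95% interval 2.48 to 3.77, SE 0.30, edgeR adjusted p = 3.06e-06). Of all symbols, 97.9% had a lower log2 fold change. The coefficient of variation was 43.5% among controls and 30.4% among animals with NASH.

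*COL6A2* encodes the α2 chain, one of the short chains that each type VI monomer needs. Controls ranged from 16.3 CPM in animal 45 over a median of 17.7 CPM to 22.5 CPM in animal 32. Animals with NASH ranged from 58.3 CPM in animal 41 over a median of 86.8 CPM to 135 CPM in animal 2. The controls lay close together, with a coefficient of variation of 12.2%, whereas that of the animals with NASH was 31.6%. The mean rose from 18.3 ± 2.24 to 88.5 ± 28.0 CPM (SD, n = 6 each), which was 2.27 on the log2 scale (95% interval 1.86 to 2.68, SE 0.19, edgeR adjusted p = 1.06e-06), and 96.1% of all symbols had a lower log2 fold change.

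*COL12A1*, whose product is found on fibrils of dense and load-bearing tissue, had the fewest counts of the 4 genes, from 48 to 193 in controls and from 553 to 1030 in NASH. Its level was between 3.43 CPM in animal 5 and 8.99 CPM in animal 31 among controls, with a median of 5.05 CPM. Among the animals with NASH it was between 19.0 CPM in animal 41 and 30.1 CPM in animal 9, with a median of 24.3 CPM. Here the animals with NASH were the more even group, with a coefficient of variation of 19.2% against 37.3% in controls. The mean rose from 5.70 ± 2.12 to 24.1 ± 4.62 CPM (SD, n = 6 each), which was 2.08 on the log2 scale (95% interval 1.59 to 2.56, SE 0.22, edgeR adjusted p = 7.8e-06).

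*COL14A1*, whose product binds fibrils and the small proteoglycan decorin, ranged in controls from 28.8 CPM in animal 5 over a median of 31.5 CPM to 38.9 CPM in animal 10. In NASH it ranged from 39.7 CPM in animal 11 over a median of 51.2 CPM to 87.1 CPM in animal 20. The groups did not overlap, but the lowest animal with NASH was only 1.02 times the highest control. The mean rose from 32.2 ± 3.85 to 55.9 ± 17.8 CPM (SD, n = 6 each), which was 0.80 on the log2 scale (95% interval 0.41 to 1.18, SE 0.18, edgeR adjusted p = 0.00217), and 83.9% of all symbols had a lower log2 fold change. The size of the rise depended on the scaling for all 4 genes. With library size alone the log2 fold change was 1.28 for *COL14A1*, while the median of all symbols moved to 0.48. Less that median, *COL14A1* was at 0.81, against 0.79 with TMM factors. The other genes moved alike with library size alone, to 2.76 for *COL6A2*, 3.60 for *COL6A3* and 2.54 for *COL12A1*. When a rise or fall beyond 1 on the log2 scale was required, *COL14A1* did not pass (edgeR adjusted p = 1), whereas the other 3 genes did.

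On the deposited regularised log (rlog) scale, which shrinks differences between animals, the 4 genes kept their order of change. The rlog of *COL6A3* ran from 8.87 to 9.73 for controls and from 10.9 to 11.6 for NASH, and that of *COL14A1* from 9.68 to 9.94 and from 9.96 to 10.7. The difference in mean rlog was 1.95 for *COL6A3*, 1.37 for *COL6A2*, 1.13 for *COL12A1* and 0.46 for *COL14A1*, and all were past the threshold (adjusted p from 5.96e-07 to 0.00313 from limma).

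Whether the genes changed by unequal amounts was tested with the log2 ratio of their CPM within each animal, which is all but independent of library scaling and in which gene length cancels between groups. The 6 pairs were compared with two-sided exact permutation tests over all splits of the 12 animals, adjusted over the 6 pairs, and the smallest p-value this allows is 0.00216. In 5 of the 6 pairs the ratio differed between groups.

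**Figure D2:**
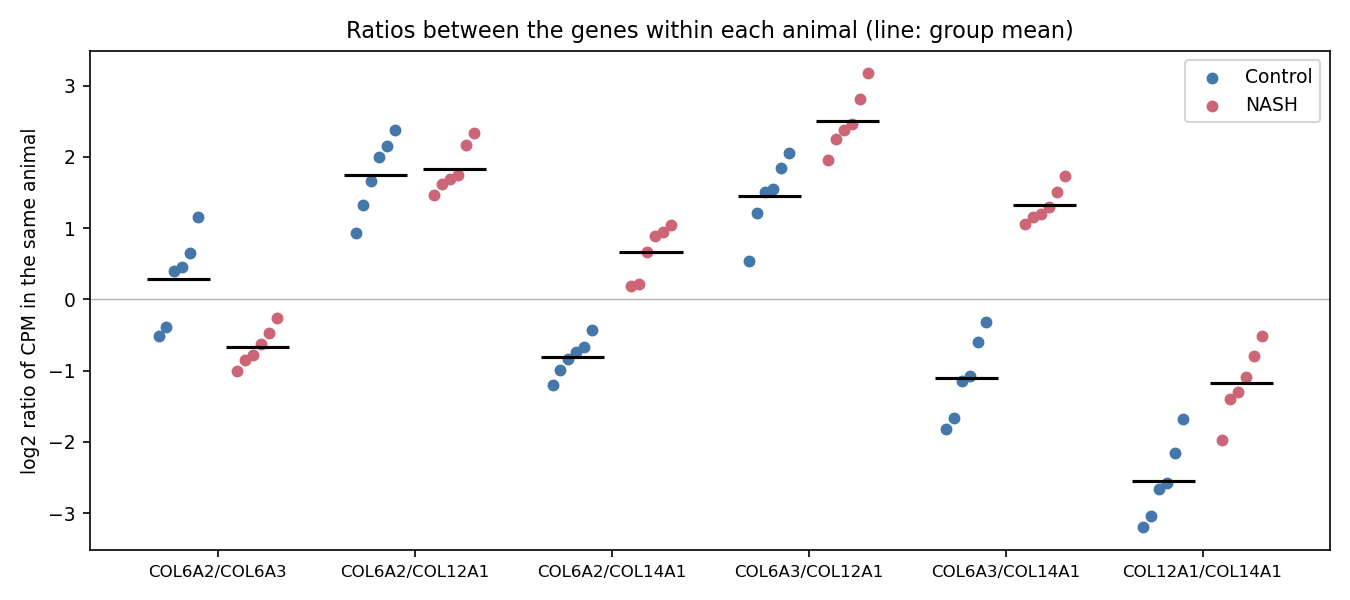
Log2 ratio of the CPM of a pair of genes in the same animal, for the 6 pairs, with controls in blue, guinea pigs with NASH in red and the group mean as a line. The ratios of *COL6A2* and *COL6A3* to *COL14A1* are higher in every animal with NASH than in any control, whereas the ratio of *COL6A2* to *COL12A1* lies in the same range in both groups.

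The widest shift was that of *COL6A3* against *COL14A1*. Their log2 ratio ran from −1.82 to −0.32 for controls and from 1.06 to 1.73 for NASH, without overlap. The ratio moved by 2.43 (95% interval 1.84 to 2.99, exact permutation adjusted p = 0.00649). *COL6A2* against *COL14A1* behaved alike, with a log2 ratio of −0.81 ± 0.27 in controls and 0.66 ± 0.38 in NASH (SD, n = 6 each, exact permutation adjusted p = 0.00649), again without overlap. *COL12A1* also rose beyond *COL14A1*, by 1.37 (95% interval 0.68 to 2.06, exact permutation adjusted p = 0.00649), with some overlap between groups. Types XII and XIV, the pair of FACIT collagens, thus differed in the size of their rise.

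The type VI chains did not rise by the same amount either. The log2 ratio of *COL6A2* to *COL6A3* was 0.29 ± 0.64 in controls and −0.67 ± 0.27 in NASH (SD, n = 6 each), a change of −0.96 (95% interval −1.59 to −0.34, exact permutation adjusted p = 0.0156). Of the controls, only animals 45 and 56, those with the most *COL6A3*, lay within the range of the animals with NASH. *COL6A3* rose beyond *COL12A1* by 1.05 on the log2 scale (95% interval 0.43 to 1.69, exact permutation adjusted p = 0.00649). For *COL6A2* against *COL12A1* no difference was detected, with a change of 0.10 and an interval from −0.49 to 0.71 (exact permutation adjusted p = 0.716), which leaves room for a difference of either sign.

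Animals within a group differed, and not in the same way for each gene. Among the animals with NASH, animals 2 and 20 had the highest *COL6A2*, *COL6A3* and *COL14A1*, while *COL12A1* was highest in animal 9. Animal 65 was below the group mean for all 4 genes, and so was animal 41. Among controls, animal 5 had the lowest *COL6A3*, *COL12A1* and *COL14A1*, and animals 45 and 56 had the highest *COL6A3*.

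**Figure D3:**
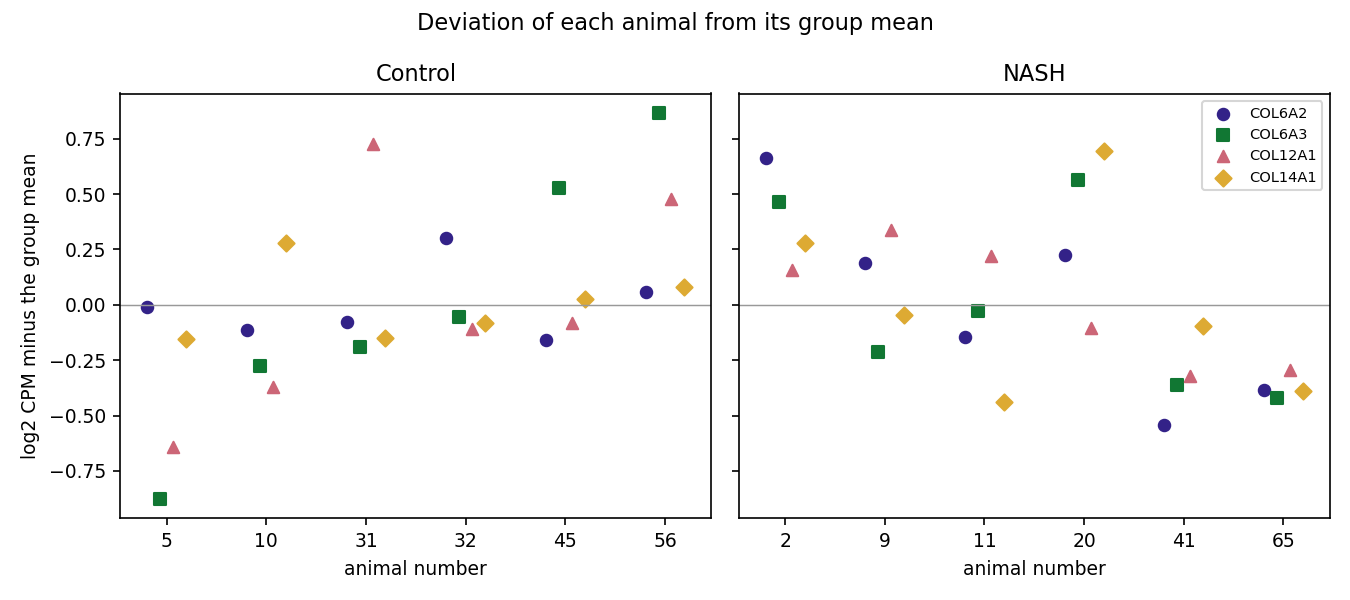
Deviation of log2 CPM from the group mean for each gene in each control (left) and each guinea pig with NASH (right), with 1 symbol per gene. In NASH, animal 2 is above 0 and animals 41 and 65 are below 0 for all 4 genes, whereas animals 9, 11 and 20 are above 0 for some genes and below it for others.

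Correlations between the genes were computed within each group, since the groups form separate clusters, with exact permutation tests over the 720 pairings, adjusted over 12 correlations. None passed the threshold. In NASH, *COL6A3* and *COL14A1* had a Pearson's r of 0.82 (n = 6, exact p = 0.0486, adjusted p = 0.4) and a Spearman's rho of 0.66 (exact p = 0.175, adjusted p = 0.525). Without the 2 animals farthest from the median of *COL6A3*, r was −0.26, so this relation rested on those animals. *COL6A2* and *COL6A3* had an r of 0.81 (n = 6, exact p = 0.0667, adjusted p = 0.4) and a rho of 0.83 (exact p = 0.0583, adjusted p = 0.525) in NASH, and an r of 0.68 without the 2 animals farthest from the median. In controls the same pair had an r of 0.02 (n = 6, exact p = 0.974, adjusted p = 0.994) and a rho of 0.14 (exact p = 0.803). Of the other 9 correlations, Pearson's r was between −0.31 and 0.64 and the unadjusted exact p-values were between 0.162 and 0.994.

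The genes whose deviations from the group means over the 12 animals were most like those of each collagen were looked up among 10674 others with a mean of at least 1 CPM. The highest of so many correlations is high by selection, all values share the library scaling, and the r is given as a description. For *COL6A2* they were *MAP1B*, with an r of 0.90, *AEBP1*, with 0.84, and *CX3CL1*, with 0.84. Within the groups, r with *COL6A2* was 0.95 in NASH and 0.37 in controls for *AEBP1*, 0.90 and 0.35 for *CX3CL1*, and 0.93 and 0.74 for *MAP1B*. For *COL6A3* they were *IL18*, *LPCAT1* and the laminin chain gene *LAMC1*, each with an r of 0.92. *IL18* encodes a cytokine, and *LAMC1* a chain of basement membranes. For *COL12A1* they were *RECK* and *PHLDA1*, each with 0.93, and *CLN6*, with 0.90, and for *CLN6* r was 0.61 in NASH and 0.97 in controls. For *COL14A1* they were *SMYD3*, with 0.95, *CORO1C*, with 0.90, and *RNF182*, with 0.90. For the genes listed with *COL6A3*, *COL12A1* and *COL14A1*, *CLN6* apart, r within a group was between 0.63 and 0.98. No gene was on more than 1 of these lists, and none of the 4 collagens was on another's list. With only 3 genes listed of 10674, this does not show whether the collagens varied together. By the same measure, r between the collagens ran from −0.05 for *COL12A1* with *COL14A1* to 0.53 for *COL6A3* with *COL14A1*. *AEBP1*, which encodes a matrix protein that binds fibrillar collagen, rose by 2.18 on the log2 scale (edgeR adjusted p = 2.33e-05), whereas *RECK*, which encodes a membrane inhibitor of matrix metalloproteinases, was at 0.23 and did not pass the threshold (edgeR adjusted p = 0.415), although with library size alone it was at 0.70 and passed (edgeR adjusted p = 0.0199).

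Of the 11 other chains listed for the type VI and FACIT families, 3 were in the table, and *COL6A1* was not analysed here. The 3 were *COL6A5* and *COL6A6*, whose products can take the place of the α3 chain, and the FACIT gene *COL16A1*. *COL6A6* rose from 1.37 ± 0.49 to 9.59 ± 3.77 CPM (SD, n = 6 each), which was 2.78 on the log2 scale (SE 0.32, edgeR adjusted p = 1.27e-05). *COL16A1* rose from 0.426 ± 0.280 CPM, between 0 and 18 counts, to 10.3 ± 3.88 CPM (SD, n = 6 each), which was 4.51 on the log2 scale (SE 0.42, edgeR adjusted p = 2.4e-06). *COL6A5* was near the limit of detection in most controls, at 0.357 ± 0.504 CPM (SD, n = 6), and at 0.910 ± 0.310 CPM (SD, n = 6) in NASH. Control animal 32, with 29 counts or 1.33 CPM, was above every animal with NASH (at most 1.28 CPM), while the other controls had at most 6 counts. The difference did not reach the threshold (edgeR adjusted p = 0.138). It did pass with limma on voom or rlog values and with library size alone (adjusted p = 0.0187, 0.0494 and 0.0373).

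The fibrillar chains, on whose fibrils types XII and XIV lie, were taken as the nearest comparison. Of 11 listed, 7 were in the table, 5 of them higher and 2 lower in NASH (median log2 fold change 2.01), where the median of all symbols was 0.00. *COL1A1* rose by 4.21, *COL1A2* by 2.57, *COL5A1* by 2.45, *COL3A1* by 2.01 and *COL5A2* by 1.62 on the log2 scale (edgeR adjusted p between 7.06e-07 and 4.1e-05). *COL24A1* fell by 1.47 (edgeR adjusted p = 5.03e-05). *COL11A1* fell by 4.56 (edgeR adjusted p = 3.71e-05), from between 212 and 575 counts in controls to between 0 and 56 counts in NASH.

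**Figure D4:**
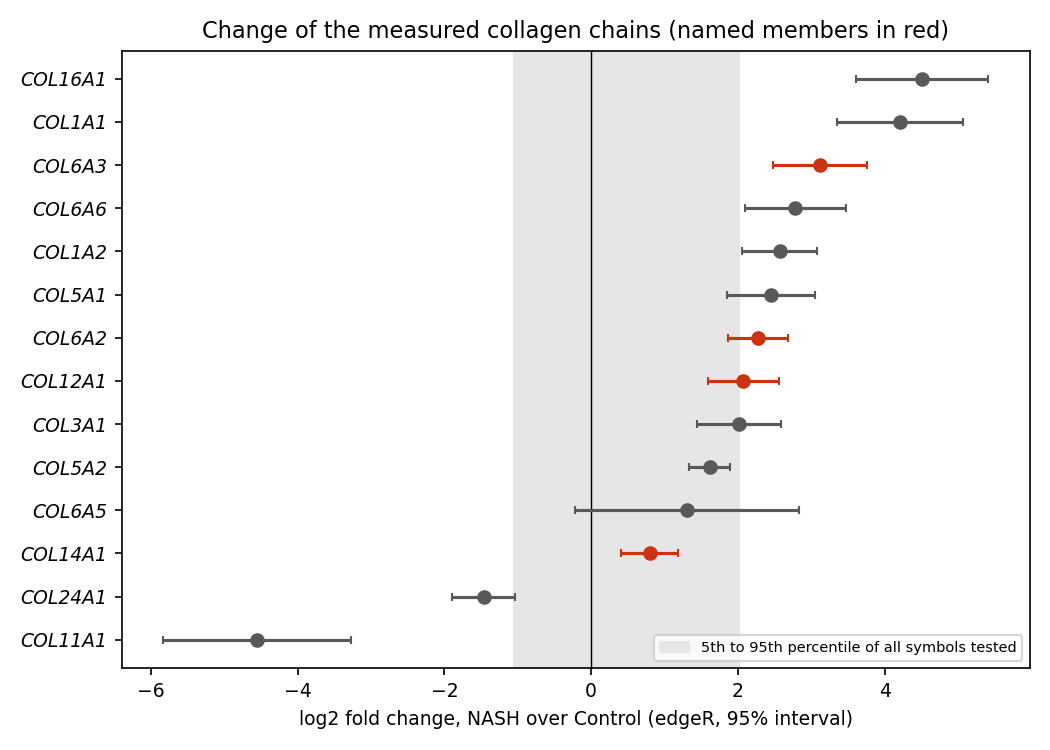
Log2 fold change of every measured chain of types I, III, V, VI, XI, XII, XIV, XVI and XXIV with its 95% interval from edgeR, the 4 genes described in red, over the 5th to 95th percentile of all symbols in grey (−1.06 to 2.01). Of these chains, *COL16A1* and *COL1A1* are above *COL6A3*, and *COL14A1* has the smallest rise among the chains that passed the threshold upwards.

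The 4 genes were then set against *COL1A1*, *COL1A2*, *COL3A1*, *COL6A6* and the summed stellate cell and fibroblast markers within each animal, as log2 ratios in 20 exact permutation tests adjusted over the 20. *COL1A1* rose beyond each of the 4, and the log2 ratio to it changed by −1.08 for *COL6A3*, −2.04 for *COL6A2*, −2.14 for *COL12A1* and −3.51 for *COL14A1* (exact permutation adjusted p from 0.00481 to 0.0118). Against *COL3A1*, *COL6A3* gained 1.28 (95% interval 0.68 to 1.82) and *COL14A1* fell by 1.15 (95% interval −1.52 to −0.78), both without overlap between groups (exact permutation adjusted p = 0.00481). The ratios of *COL6A2* and *COL12A1* to *COL3A1* moved by 0.32 (95% interval −0.09 to 0.66) and 0.23 (95% interval −0.51 to 0.93) and did not pass the threshold (exact permutation adjusted p = 0.158 and 0.483). Without animal 20 of the NASH group, the ratio of *COL6A2* to *COL3A1* did pass, with 0.48 (exact permutation adjusted p = 0.00866).

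**Figure D5:**
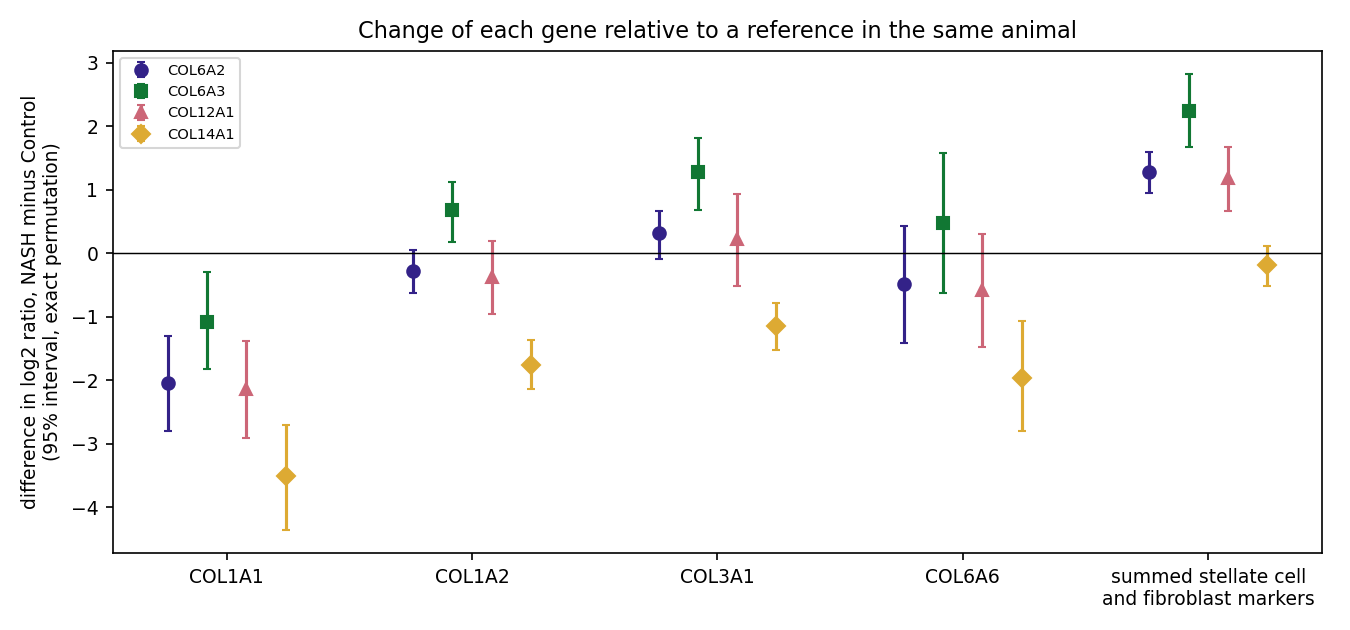
Difference between NASH and controls in the log2 ratio of each gene to a reference in the same animal, with the 95% interval from the exact permutation test (n = 6 each), for 5 references on the horizontal axis. *COL14A1* is the lowest of the 4 genes against each reference, and of the 5 references its interval reaches 0 only for the sum of all 16 measured stellate cell and fibroblast markers, of which *RGS5* makes up 40.8% in NASH.

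*COL14A1* fell by 1.75 against *COL1A2* (95% interval −2.14 to −1.36, exact permutation adjusted p = 0.00481), and its ratio to *COL6A6* changed by −1.96 (exact permutation adjusted p = 0.00866). The ratios of *COL6A2* and *COL12A1* to *COL1A2* did not pass the threshold, with changes of −0.28 (95% interval −0.63 to 0.05) and −0.38 (95% interval −0.95 to 0.19, exact permutation adjusted p = 0.153 and 0.222). *COL6A3* gained 0.68 on *COL1A2* (95% interval 0.18 to 1.12, exact permutation adjusted p = 0.0325), a call that was lost when animal 2, 9, 11, 41 or 65 of the NASH group was left out (exact permutation adjusted p from 0.0505 to 0.0577), while the change itself stayed between 0.64 and 0.69. Between the chains α3 and α6 of type VI collagen no difference in change was detected, with 0.47 and an interval from −0.63 to 1.58 (exact permutation adjusted p = 0.362).

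In whole liver, more cells of a type and more RNA per cell cannot be told apart, so levels of marker genes are given beside these changes. Of 18 stellate cell and fibroblast markers, 16 were in the table, with 9 higher and 4 lower in NASH and a median log2 fold change of 0.82 (9 and none with library size alone). Of all 11896 symbols, 27.9% were higher and 26.0% lower, and with library size alone 7603 were higher and 911 lower. The summed level of the 16 markers ran from 624 to 760 CPM for controls and from 1082 to 1581 CPM for NASH. A large share of this sum came from 1 gene, *RGS5*, which made up 12.8% of it in controls and 40.8% in NASH. Without *RGS5*, the other 15 markers summed to 536 to 655 CPM in controls and 690 to 834 CPM in NASH. The mean log2 sum rose by 0.93 with this gene and by 0.38 without it. *RGS5*, a pericyte gene, rose most, by 2.62, followed by the microfibril gene *MFAP4*, by 2.15, whereas *LRAT*, which stores retinol in quiescent stellate cells, fell by 0.57 and *GLI1*, a Hedgehog target, by 0.73 (edgeR adjusted p between 1.69e-07 and 0.018). With library size alone, *LRAT* was at −0.10 and *GLI1* at −0.25, and neither passed the threshold. Relative to the sum of all 16 markers, *COL6A3* rose by 2.24 (95% interval 1.68 to 2.83), *COL6A2* by 1.28 (95% interval 0.95 to 1.60) and *COL12A1* by 1.19 (95% interval 0.67 to 1.68), all without overlap (exact permutation adjusted p = 0.00481). For *COL14A1* no difference from the sum was detected, with a change of −0.19 and an interval from −0.51 to 0.12 (exact permutation adjusted p = 0.27). With *RGS5* left out of the sum, an alternative chosen after the data had been seen, the changes were 2.79 for *COL6A3*, 1.84 for *COL6A2* and 1.74 for *COL12A1* (exact permutation adjusted p = 0.00481). The sign for *COL14A1* then turned, to 0.37 with an interval from −0.01 to 0.75, and again did not pass the threshold (exact permutation adjusted p = 0.0833).

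Markers of other cell types moved as well, and their part in these results was not tested. The counts stand beside 27.9% higher and 26.0% lower of all symbols. Of the cholangiocyte list, 7 of 10 were measured, 5 higher and 1 lower, and the sum was 96.0 to 146 CPM in controls and 333 to 582 CPM in NASH. Of the macrophage list, 7 of 11 were measured, 3 higher and 1 lower, with sums of 339 to 522 and 872 to 1085 CPM. The sums of both lists were higher in every animal with NASH than in any control, but *GPNMB* made up 51.0% of the macrophage sum in NASH and 11.4% in controls. Without *GPNMB* the macrophage sums overlapped, at 325 to 464 CPM in controls and 440 to 523 CPM in NASH. The 3 macrophage genes that rose were *GPNMB*, *TREM2* and *CD68*, each without overlap between groups, and the 1 that fell was *MARCO*. Of the endothelial list, 8 of 10 were measured, 3 higher and 2 lower, with sums of 542 to 681 and 578 to 829 CPM. Of the T cell list, 8 of 9 were measured, 1 higher and 1 lower, with sums of 62.5 to 117 and 38.8 to 67.9 CPM. The endothelial and T cell sums overlapped between groups, and *CD3E* made up 81.1% of the T cell sum in controls and 65.2% in NASH. Without *CD3E* the T cell sums were 11.3 to 18.4 CPM in controls and 14.7 to 21.6 CPM in NASH, and the difference in mean log2 sum turned from −0.74 to 0.14. All 6 measured of 9 erythroid markers were higher, with sums of 58.6 to 176 and 437 to 4597 CPM. *HBA1*, on a row shared by 2 symbols, made up 96.5% of the sum in controls and 93.7% in NASH, and without it the sums were 1.72 to 7.94 and 32.7 to 308 CPM. The 10 measured hepatocyte markers held 9 that were lower and none higher, and with library size alone 4 were lower and 1 higher. That scaling gave 6 higher and none lower of the cholangiocyte, 5 and 1 of the macrophage, 5 and 1 of the endothelial and 4 and 1 of the T cell markers, and left the erythroid count at 6 and none. It gave 7603 higher and 911 lower of all 11896 symbols. No marker measured was at 0 in every animal.

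Types VI, XII and XIV bind small proteoglycans and glycoproteins of the matrix. Of 17 genes for such partners, 13 were in the table, 9 higher and 3 lower in NASH (median log2 fold change 0.62). Of all symbols, 27.9% were higher and 26.0% lower. With library size alone 10 partners were higher and 1 lower, beside 7603 higher and 911 lower of all 11896 symbols. The small leucine-rich proteoglycan genes *FMOD* and *PRELP* rose by 3.57 and 2.05 (edgeR adjusted p = 3.53e-05 and 1.1e-05). Decorin (*DCN*), a ligand of both type VI and type XIV collagen, was at 306 ± 25.8 CPM in controls and 469 ± 75.7 CPM in NASH (SD, n = 6 each) and rose by 0.62 on the log2 scale (edgeR adjusted p = 0.000306). Biglycan (*BGN*), a related proteoglycan that also binds type VI collagen, was at 41.2 ± 7.98 CPM in controls and 29.1 ± 5.25 CPM in NASH (SD, n = 6 each) and fell by 0.50 (edgeR adjusted p = 0.0116), whereas with library size alone it was at −0.03 and did not pass (edgeR adjusted p = 0.879). Fibronectin (*FN1*), which hepatocytes also secrete into plasma, fell by 0.99 (edgeR adjusted p = 3.38e-05), and periostin (*POSTN*) fell by 0.80 (edgeR adjusted p = 0.00443); without TMM factors *POSTN* was at −0.33 and did not pass (edgeR adjusted p = 0.162).

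Of 15 receptors for these collagens and their partners, 13 were in the table, 7 higher and 1 lower (median log2 fold change 0.69). Of all symbols, 27.9% were higher and 26.0% lower. With library size alone 10 receptors were higher and none lower, beside 7603 higher and 911 lower of all 11896 symbols. The collagen receptor tyrosine kinase gene *DDR1* rose by 3.58 and the integrin chain gene *ITGA3* by 2.39 (edgeR adjusted p = 8.35e-08 and 1.75e-07). *ANTXR1* and *ANTXR2* encode a pair of related receptors, of which the first binds the C-terminal end of the α3(VI) chain and the second takes up type VI collagen. *ANTXR1* rose by 0.69 (edgeR adjusted p = 0.0194) and *ANTXR2* fell by 0.40 (edgeR adjusted p = 0.000368), although with library size alone *ANTXR2* was at 0.08 and did not pass. *ITGA1*, which encodes a chain of a collagen-binding integrin, had a log2 fold change of −0.61 and did not pass the threshold (edgeR adjusted p = 0.0989).

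All 20 genes listed for folding and modification of collagen chains in the endoplasmic reticulum were measured, 8 higher and 4 lower in NASH (median log2 fold change 0.19). Of all symbols, 27.9% were higher and 26.0% lower. With library size alone, 15 of the 20 were higher and none lower. That scaling gave 7603 higher and 911 lower of all 11896 symbols, and their median moved to 0.48. The collagen chaperone gene *SERPINH1* rose by 1.39 (edgeR adjusted p = 8.33e-06), *P3H3*, of the prolyl 3-hydroxylase family, by 2.08 (edgeR adjusted p = 1.76e-05) and the prolyl isomerase gene *FKBP10* by 1.91 (edgeR adjusted p = 2.74e-07). *TMEM38B*, which encodes a channel of the endoplasmic reticulum, fell by 0.57 (edgeR adjusted p = 0.00302) and *P3H2* by 0.51 (edgeR adjusted p = 0.0393), and neither passed with library size alone. *P3H2* did not pass with upper-quartile factors either, at −0.44 (edgeR adjusted p = 0.0735). Of 15 matrix proteases and inhibitors, 7 were measured, 3 higher and none lower (median log2 fold change 0.27), beside 27.9% and 26.0% of all symbols. With library size alone 6 were higher, where 7603 of all 11896 symbols were higher. The inhibitor gene *TIMP1* rose by 2.20 and the gelatinase gene *MMP2* by 2.02 (edgeR adjusted p = 5.44e-05 and 1.85e-05), whereas *TIMP3*, at −0.19, and the procollagen protease gene *BMP1*, at −0.02, did not pass. With library size alone *BMP1* was at 0.44 and passed (edgeR adjusted p = 0.0356).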

How the data were processed

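Liver mRNA of 12 guinea pigs was sequenced as stranded single reads. The authors trimmed reads with Trimmomatic 0.38.0, mapped them with HISAT2 2.1.0 to Cavpor3.0, ignored multimapped reads and quantified loci with StringTie 1.3.6. They deposited raw counts per locus, without symbols, and rlog values on a log2 scale from DESeq2 for symbols with a human orthologue and at least 200 counts in total. Groups came from the sample labels. Rows were tied to symbols by running the rlog transformation again, which recovered all 11896 deposited symbols to within 8.35e-07. Each of the 4 collagens had a row of its own, while 1515 symbols shared one.

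The tests ran in edgeR 4.0.16 under R 4.3.3 (TMM, totals of the whole count table, glmQLFit with robust estimation, glmQLFTest). The SE is the absolute log2 fold change over the square root of F. Log2 CPM used a prior count of 2. Intervals of ratios hold the shifts that the exact test keeps. Alternatives were RLE, upper-quartile and no scaling factors, DESeq2 1.42.0, limma 3.58.1 on voom and rlog values, other row filters, a required log2 change beyond 1, prior counts of 0.5 and 5, and each animal left out in turn. The ratios to other genes, with their alternatives, were added after the data had been seen.

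The members and lists were chosen with earlier results of these data known. Singly named are the 4 genes, all measured chains of the related and fibrillar lists, the 2 highest and 2 lowest genes of the partner, receptor, folding, protease and stellate cell lists and the 3 genes most like each collagen. The same rule for the other marker lists was not used, and those are given as counts and sums. *ANTXR1*, *DCN*, *SERPINH1*, *BGN*, *GPNMB*, *TREM2*, *CD68*, *MARCO*, *CD3E* and *HBA1* were chosen after their values were seen. On simulated counts with 200 of 11896 genes changed 4-fold, edgeR recovered 97.5% of them. The simulation changed far fewer genes than the 53.9% of symbols called here. It therefore tested neither the choice of scaling nor rises smaller than 4-fold. Plots used matplotlib 3.10.9 under Python 3.11.15.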

Additional observations from a re-analysis of the deposited data

How the results depend on the processing

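The rises of *COL6A2*, *COL6A3* and *COL12A1* kept their direction and stayed past the threshold in all 21 alternatives. *COL14A1* did so in all but the test that required a log2 change beyond 1, where the estimate stayed 0.80 (adjusted p = 1 from edgeR). Leaving out single animals gave 2.11 to 2.37 for *COL6A2*, 2.99 to 3.33 for *COL6A3*, 1.97 to 2.26 for *COL12A1* and 0.63 to 0.88 for *COL14A1*. Library size alone gave 7603 symbols higher and 911 lower, and the required change beyond 1 gave 853 and 247, against 3318 and 3093. Of the ratios between the 4 genes, *COL6A2* to *COL12A1* changed sign with single animals left out (−0.0646 to 0.22), and the other 5 kept sign and call in all 15 alternatives.

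None of the correlations within a group passed the threshold with rank or rlog values. The alternative without 2 animals leaves 4, too few to pass after adjustment over 12 unless nearly all correlations were at the smallest p, and is read for its sign alone. Of the 12, 6 changed sign under at least 1 alternative, among them the largest r, that of *COL6A3* with *COL14A1* in NASH. Some of the 6 were near 0 at the start, where a change of sign means little. Their r was 0.0042 for *COL12A1* with *COL14A1* in NASH and 0.0048 for *COL6A2* with *COL12A1* in controls. Without the 2 animals farthest from the median, r was −0.26 for *COL6A3* with *COL14A1* and −0.80 for *COL12A1* with *COL14A1* in NASH, and −0.14 for *COL6A3* with *COL12A1*, −0.15 for *COL6A3* with *COL14A1* and 0.15 for *COL12A1* with *COL14A1* in controls. On rlog values r was −0.00069 for *COL12A1* with *COL14A1* in NASH and −0.0101 for *COL6A2* with *COL12A1* in controls. Spearman's rho was −0.0286 for the latter pair and 0.0857 for *COL12A1* with *COL14A1* in controls. With library size alone, *ANTXR2* was at 0.0765, *BMP1* at 0.44, *TIMP3* at 0.29 and *CLN6* at 0.22, of which *BMP1* passed the threshold, and *BMP1* was at 0.0453 with upper-quartile factors, 0.0236 with voom and 0.0111 on rlog values. The log2 ratio of *COL14A1* to the summed stellate cell markers changed by 0.37 without *RGS5*, against −0.19 with it. The cause was not tested. No paired analysis was possible because the labels do not give the body weight blocks and no animal number occurs in both groups. The counts are of separate animals, 6 a group, and *COL12A1* rests on the fewest.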
